A study of Mus musculus with 2 samples.

Results

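The nuclear pore and nuclear transport genes measured here are 52 genes, read by 138 probe sets, out of 18193 genes on the array. They were selected as probe sets annotated to exactly 1 gene whose symbol is that of a nucleoporin (Nup), an importin (Kpna, Kpnb, Ipo), a transportin (Tnpo), an exportin (Xpo), a Ran-binding protein (Ranbp), Ran, Rangap1, Rcc1 or Tpr. This rule uses names and no measured value, but the set was proposed with earlier results of these data known. Tpr, Nup35 and Nup62cl also fit these names but are not analysed here, and 3 further probe sets that name a member together with another gene were left out. Total RNA came from 2 mouse embryonic stem cell cultures of strain C57BL/6, 1 with the genotype MOF-/- (labelled Mof null) and 1 with the genotype MOF +/+ (wild type), each hybridised to 1 Affymetrix array. Mof, with the gene symbol Kat8, is the acetyltransferase of lysine 16 of histone H4. Both lines came from embryos of day 3.5 post coitum, were at passage 15 to 18, and were grown on embryonic fibroblast feeders with LIF and then without feeders for 2 passages. The labels do not say how the null allele was made or how many clones it stands for.

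Nuclear pores are channels through the nuclear envelope, built from many copies of proteins called nucleoporins. A scaffold of outer Y-shaped complexes and an inner ring carries nucleoporins rich in phenylalanine-glycine (FG) repeats, which fill the channel, with filaments on the cytoplasmic face and a basket on the nuclear face. Importins and exportins of the karyopherin family bind cargo and FG repeats, and the direction of transport is set by the GTPase Ran, which is charged with GTP on chromatin by Rcc1 and discharged in the cytoplasm by Rangap1. In mouse embryonic stem cells, Nup133 and Nup210 are known for roles in differentiation and Nup153 for binding near developmental genes. In Drosophila, the basket proteins Nup153 and Megator (the Tpr homologue) were found in association with the dosage compensation complex that contains Mof.

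Every difference below is a log2 value of the Mof null array minus the log2 value of the wild type array. A gene is represented by its brightest probe set, the one whose values on both arrays average highest, and folds are 2 raised to the size of the difference. With 1 array per genotype there is no replicate error, no test and no p-value, and genes were counted by a fixed size of 1.5-fold or 2-fold. A spread could be measured between probe sets alone: within a gene, the differences of its expressed probe sets varied with a pooled SD of 0.24 log2 units over 36 member genes and of 0.33 over 5362 genes of the whole array. Genes and probe sets counted as expressed if at least 1 of the 2 arrays gave 6.02 or more, which is the median over the whole table. All 52 member genes reached it, on each array separately as well, the lowest value being 6.03. Of the 138 member probe sets 115 reached it.

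Facts of the whole array bear on every direction given below. Kat8 itself had a log2 value of 8.37 on the array labelled Mof null and 8.06 on the array labelled wild type on its only probe set, so the targeted transcript was not lower in the null culture. The position of the probe set with respect to the deletion is unknown here, so this value does not check the labels. Markers of pluripotent cells were present on both arrays: all 24 were expressed and were higher in the Mof null culture, with a median difference of 0.60. All 28 fibroblast markers, the feeder cell type, were above the expression threshold on both arrays and lower on the array labelled Mof null, with a median difference of -1.92 and summed linear values of 73760 against 201872. Of 18 macrophage markers 15 were above the threshold on the array labelled Mof null and 17 on the array labelled wild type, and the 17 that were expressed had a median difference of -2.02. The part of these markers' shifts in the results below was not tested, and in bulk RNA fewer cells of a type cannot be told apart from less RNA per cell.

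Over the 52 genes, nuclear pore and transport genes were slightly higher in the Mof null culture, and none was 1.5-fold lower. The median difference was 0.45 log2 units (SD over genes 0.35), against 0.10 (SD over genes 0.81) for the 12015 expressed genes. Of the 52 genes, 46 were higher to any degree, or 88.5%, against 56.7% of all expressed genes. At 1.5-fold, 14 members or 26.9% were higher, where 17.3% of all expressed genes were. None was 1.5-fold lower, where 19.2% of all expressed genes were. At 2-fold, 3 members or 5.77% were higher, close to the 5.09% of all expressed genes, and none was lower, where 11.9% were. Probe sets gave a like picture: 33 of the 115 expressed member probe sets or 28.7% were at least 1.5-fold higher, where 16.0% of all expressed probe sets were, and none was 1.5-fold lower, where 18.3% were. At 2-fold, 8 or 6.96% were higher, where 4.49% of all expressed probe sets were, and none was lower, where 11.1% were.

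**Figure D1:**
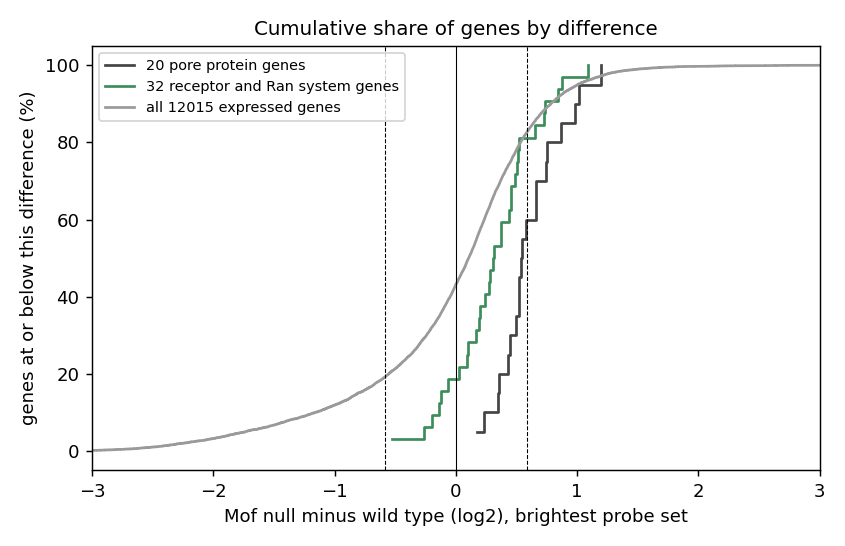
Cumulative share of genes (vertical axis, %) by the log2 difference between the arrays (horizontal axis, Mof null minus wild type) for the 20 pore protein genes, the 32 transport receptor and Ran system genes and all 12015 expressed genes; dashed lines mark 1.5-fold. The pore protein curve begins above 0, and neither member curve reaches the lower dashed line, below which 19.2% of all expressed genes lie.

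Within the name rule, medians differed by role. All 20 pore protein genes were higher on their brightest probe set, with differences from 0.18 to 1.20 and a median of 0.54. On the brightest probe set 8 of the 20 were at least 1.5-fold and 2 at least 2-fold higher. With all probe sets of a gene averaged, Ranbp2 turned to -0.057, Nup214 came to 0.0086, and no member was 2-fold higher. The 32 genes of transport receptors and the Ran system ran from -0.53 to 1.09 with a median of 0.31, and 26 of them were higher, 6 at least 1.5-fold. Their share past 1.5-fold, 18.75%, lay near the 17.3% of all expressed genes, while that of the pore genes was 40.0%. Whether the pore genes and the other members differ from each other cannot be tested on 1 array per genotype. Outside the name rule the medians ran the other way. The 11 expressed further pore subunits had a median of 0.26, with 8 higher and 0 past 1.5-fold. The 11 expressed further receptors and Ran cofactors had a median of 0.54, with 10 higher and 5 past 1.5-fold.

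**Figure D2:**
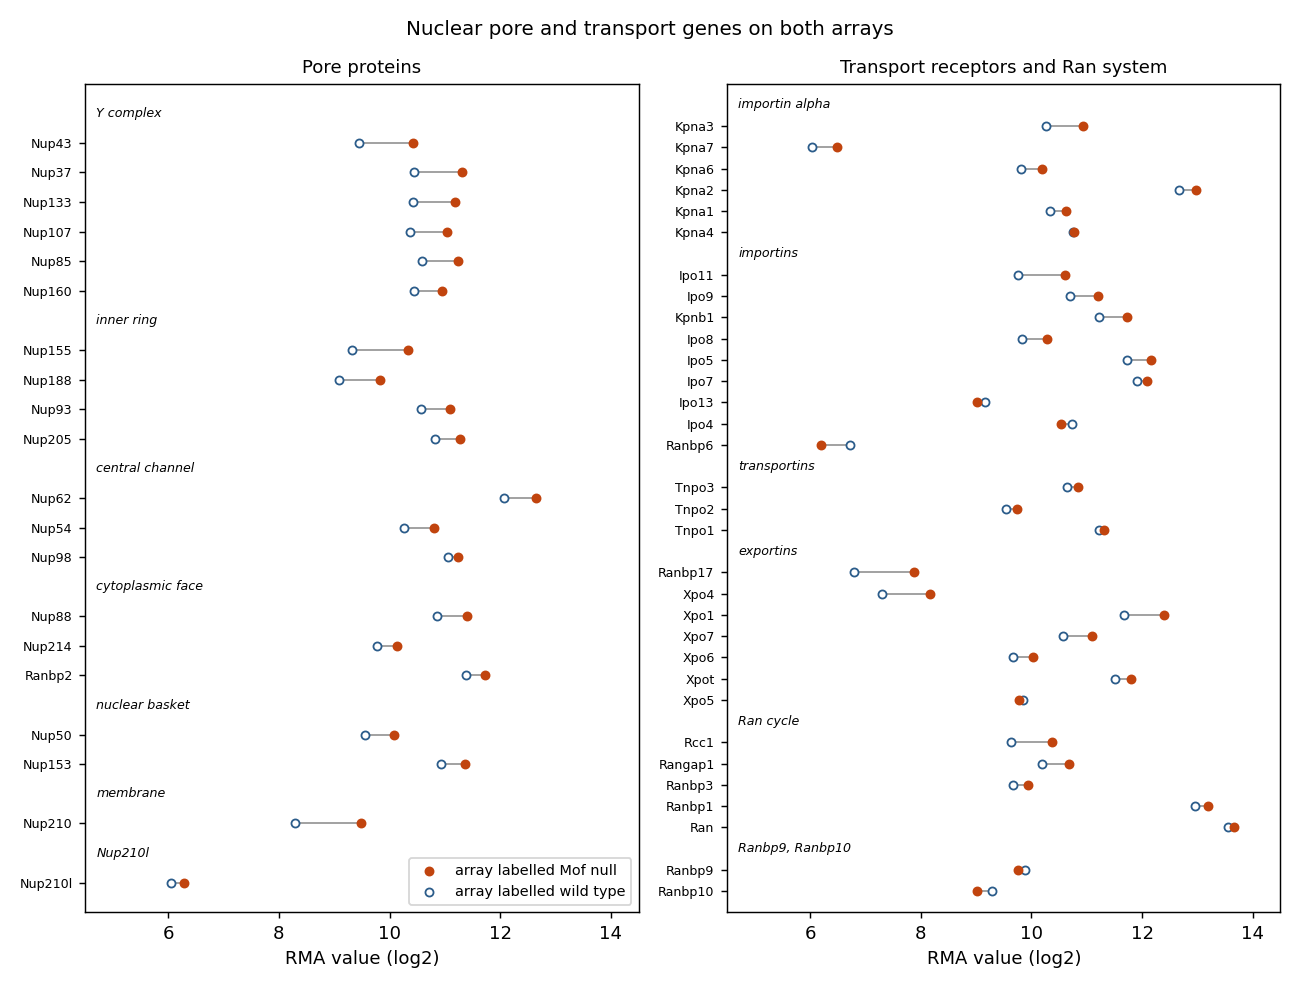
RMA value (horizontal axis, log2) of each of the 52 genes on the array labelled Mof null (filled) and on the array labelled wild type (open), on the brightest probe set, by role and then by difference. All 20 pore protein genes have the filled point to the right, and among the other 32 genes Ranbp6, Ranbp10, Ipo4, Ipo13, Ranbp9 and Xpo5 have it to the left.

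Promoter sequences are shown for the genes with the largest difference among pore proteins (Nup210 and Nup155). Shown too are those of a pore gene each with repeated E-boxes (Nup188) and repeated NRF1 motifs (Nup107), and that of Ran (difference 0.10), which holds both motifs. Each is the 250 bases before the gene's start in RefSeq (GRCm38.p6), 5′ to 3′ on the gene's strand, and capitals mark matches on either strand to the E-box (CACGTG, the motif of Myc and related factors), the ETS motif (CCGGAAGT) or the NRF1 motif (GCGCN followed directly by TGCGC).
Nup210, chr6:91116827-91117076, minus strand: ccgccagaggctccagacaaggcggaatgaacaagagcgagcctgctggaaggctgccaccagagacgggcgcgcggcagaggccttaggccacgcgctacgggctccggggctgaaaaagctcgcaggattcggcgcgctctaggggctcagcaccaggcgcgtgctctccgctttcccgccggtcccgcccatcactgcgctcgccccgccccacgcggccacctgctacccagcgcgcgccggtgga
Nup155, chr15:8109063-8109312, plus strand: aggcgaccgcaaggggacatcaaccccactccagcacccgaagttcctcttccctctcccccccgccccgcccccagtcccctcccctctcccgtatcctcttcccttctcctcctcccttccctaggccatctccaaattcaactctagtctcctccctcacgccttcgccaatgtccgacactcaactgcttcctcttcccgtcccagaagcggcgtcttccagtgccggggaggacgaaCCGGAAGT
Nup188, chr2:30286166-30286415, plus strand: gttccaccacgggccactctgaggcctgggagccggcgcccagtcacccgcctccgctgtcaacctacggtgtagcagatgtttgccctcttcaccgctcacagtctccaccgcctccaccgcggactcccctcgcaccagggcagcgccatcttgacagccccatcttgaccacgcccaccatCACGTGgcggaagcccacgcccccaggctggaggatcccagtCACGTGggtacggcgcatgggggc
Nup107, chr10:117792706-117792955, minus strand: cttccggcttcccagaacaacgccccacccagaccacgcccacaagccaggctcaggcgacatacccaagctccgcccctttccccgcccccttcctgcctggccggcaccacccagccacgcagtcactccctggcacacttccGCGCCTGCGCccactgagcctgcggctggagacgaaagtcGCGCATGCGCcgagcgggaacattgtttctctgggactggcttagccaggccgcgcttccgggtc
Ran, chr5:129019906-129020155, plus strand: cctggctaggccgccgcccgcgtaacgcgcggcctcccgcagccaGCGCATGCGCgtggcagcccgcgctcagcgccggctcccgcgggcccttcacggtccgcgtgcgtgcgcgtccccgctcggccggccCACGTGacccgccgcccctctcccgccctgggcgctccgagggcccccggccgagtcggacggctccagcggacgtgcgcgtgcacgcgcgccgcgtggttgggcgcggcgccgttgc

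Nup210 has no capitals, Nup155 has an ETS match that ends at the last base before the gene's start, Nup188 has 2 E-boxes, Nup107 has 2 NRF1 matches, and Ran has 1 E-box and 1 NRF1 match. RefSeq promoter windows (250 bases before to 50 after the start) were matched by symbol for 42 of the 52 genes, in 49 windows. An E-box was found in 9 of the 49 windows (18.4%), against 7.15% of all 32851 windows. The NRF1 motif was found in 7 (14.3%, against 4.60%), and the ETS motif in 4 (8.16%, against 3.89%). The CCAAT box (CCAAT) was in 23 (46.9%, against 37.4%) and the CHR motif (TTTGAA, a motif of cell cycle genes) in 11 (22.4%, against 17.9%). No match of one motif overlapped a match of another in the member windows. Among the genes at least 1.5-fold higher, 1 of 11 windows had an E-box and 1 of 11 an NRF1 motif, against 8 of 38 and 6 of 38 windows of the other members. Windows of a gene can overlap. The NRF1 counts for all members and for the other members include both windows of Ipo9, which hold the same site. The CHR count includes both overlapping windows of Nup37, and the CCAAT count includes both windows of Ipo9 and both of Nup37. All 32851 windows are of 27025 genes and were not limited to the 12015 expressed ones. A match is not a measured binding site, and no link between motifs and differences was tested.

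Among the role groups with more than 3 genes, all drawn by the name rule, the Y complex, the outer scaffold ring, had the most uniform shift. All 6 of its genes on the name rule were higher and 5 passed 1.5-fold, and the median difference was 0.71 (SD over genes 0.17). Beside this and every role group below stand 56.7% of all expressed genes higher and 17.3% at least 1.5-fold higher. This uniformity does not extend to the whole complex, since Sec13, a subunit outside the rule, differed by -0.30. Nup43, a beta-propeller subunit, had a log2 value of 10.4 on the array labelled Mof null and 9.45 on the array labelled wild type, a difference of 0.98 or 1.98-fold, and its other probe set gave 0.88. Nup37, another beta-propeller subunit, had 11.3 against 10.4 in wild type, a difference of 0.87 on its only probe set.

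Nup133, a stem subunit of the Y complex, had 11.2 on the array labelled Mof null and 10.4 on the array labelled wild type, 1.68-fold higher. It was read by 3 expressed probe sets with differences of 0.75, 0.77 and 1.13, so all of them were past 1.5-fold. Its probe sets below the expression threshold differed by 0.80, 0.10 and -0.36. The mean of all 6 differed by 0.53, which is under 1.5-fold. Nup107, its partner in the stem, was 1.58-fold higher, and Nup85, in a short arm of the Y, was also 1.58-fold higher, with 11.2 against 10.6 in wild type and probe sets at 0.66 and 0.77. Nup160, in the other arm, was under 1.5-fold with 10.9 against 10.45 in wild type and a difference of 0.49.

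Subunits of the Y complex whose symbols are not those of the name rule give a mixed picture. Ahctf1 (Elys, which seeds pore assembly on chromatin) had 10.4 on the array labelled Mof null and 9.90 on the array labelled wild type. It and Seh1l were higher by 0.47 each, while Sec13, which is also a coat protein of secretory vesicles, differed by -0.30. None of these 3 passed 1.5-fold.

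The inner ring, which anchors the channel proteins to the envelope, followed closely, with all 4 measured genes higher and a median difference of 0.63. Nup155 had 10.3 on the array labelled Mof null and 9.32 on the array labelled wild type, 2.03-fold higher, and its second expressed probe set differed by 0.71. Its remaining probe set, below the expression threshold, differed by -0.50, and the mean of all 3 by 0.41, which is under 1.5-fold. Nup188 had 9.83 against 9.09 in wild type, 1.67-fold higher on its only expressed probe set. Nup93, which links the ring to the channel proteins, and Nup205, a large relative of Nup188, were under 1.5-fold. Nup93 differed by 0.52, and Nup205 had 11.3 against 10.8 in wild type, a difference of 0.45.

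Nup210, the glycoprotein that crosses the pore membrane, had the largest difference of all 52 genes. Its log2 value was 9.48 on the array labelled Mof null and 8.28 on the array labelled wild type, a difference of 1.20 or 2.29-fold. It rests on 1 expressed probe set; the other read 3.47 against 3.26 in wild type, far below the expression threshold, and the mean of both probe sets differed by 0.70. Of the other membrane nucleoporins, Ndc1 had 9.70 against 9.13 in wild type, a difference of 0.57, and Pom121 differed by 0.10. Nup210l, a relative of Nup210 known from testis, was near the threshold with 6.28 against 6.04.

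On their brightest probe sets, nucleoporins of the channel and of both faces were higher by smaller median amounts. With all probe sets of a gene averaged, the median was 0.69 for the Y complex and 0.47 for the basket. It was then 0.51 for both the inner ring and the central channel, so the order of these depends on the probe sets. Nup62, the central FG nucleoporin, had 12.6 on the array labelled Mof null and 12.06 on the array labelled wild type, a difference of 0.58 that lies just under the 1.5-fold line at 0.585. Its 5 expressed probe sets ran from 0.58 to 1.45, and the 4 others were all past that line. Nup54, which forms a complex with Nup62, differed by 0.54 with 5 probe sets from 0.32 to 0.75, and Nupl1 (Nup58), the remaining partner in that complex, by 0.35. Nup98, whose transcript also encodes the Y complex subunit Nup96, differed least of all pore genes on the name rule, with 11.2 against 11.1 in wild type and a difference of 0.18.

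On the cytoplasmic face, Nup88 had 11.4 on the array labelled Mof null and 10.9 on the array labelled wild type, a difference of 0.53. Ranbp2, the large filament protein that binds Ran and acts as a SUMO ligase, had 11.7 against 11.4 in wild type, a difference of 0.35. Its other expressed probe set gave 0.28 and 2 below the expression threshold gave 0.03 and -0.88, so its mean turned negative. Nup214, the partner of Nup88, differed by 0.36 on its brightest probe set but by -0.34 on the other, so its direction depends on the probe set. Outside the name rule, the cytoplasmic FG protein Nupl2 differed by -0.42, and the mRNA export factor Rae1 had 11.1 against 10.5 in wild type, a difference of 0.56.

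In the basket, Nup50, which helps importin alpha release its cargo, had 10.08 on the array labelled Mof null and 9.56 on the array labelled wild type. The difference was 0.52, with 3 probe sets from 0.18 to 0.52. Nup153 had 11.4 against 10.9 in wild type, a difference of 0.43, while its other expressed probe sets differed by 0.15 and 1.06. Both basket genes were thus under 1.5-fold by their brightest probe set.

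**Figure D3:**
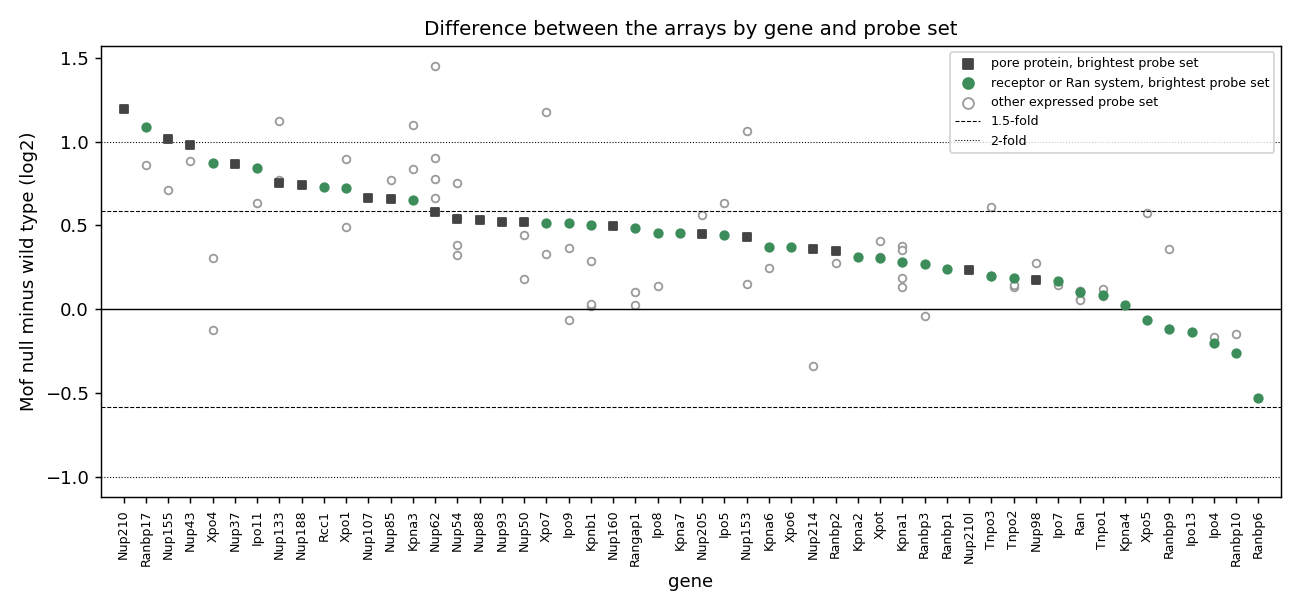
Log2 difference (vertical axis, Mof null minus wild type) of the 52 genes in order of their brightest probe set (squares for pore proteins, filled circles for receptors and the Ran system), with other expressed probe sets as open circles; dashed and dotted lines mark 1.5-fold and 2-fold. Points run from 1.20 for Nup210 to -0.53 for Ranbp6, and Nup214, Ipo9, Xpo4, Xpo5, Ranbp3 and Ranbp9 have probe sets on both sides of 0.

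Exportins, which carry cargo out of the nucleus together with Ran-GTP, had a median difference of 0.52, with 6 of 7 genes higher and 3 at least 1.5-fold. Of all expressed genes 56.7% were higher and 17.3% at least 1.5-fold. Xpo1 (Crm1), the receptor for leucine-rich export signals, had 12.4 on the array labelled Mof null and 11.7 on the array labelled wild type, 1.65-fold higher, with 3 probe sets from 0.49 to 0.90. Ranbp17, a close relative of Xpo7, had 7.88 against 6.79 in wild type, 2.12-fold higher, with its other expressed probe set at 0.86. Xpo4, known as an exporter of eIF5A and Smad3 and an importer of Sox2, was 1.83-fold higher on its brightest probe set (8.16 against 7.29), but its other probe sets gave 0.31 and -0.13.

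The remaining exportins were under 1.5-fold. Xpo7 differed by 0.52 (3 expressed probe sets from 0.33 to 1.18), the actin exporter Xpo6 by 0.37 and the tRNA exporter Xpot by 0.30, with its 3 expressed probe sets between 0.30 and 0.41. Xpo5, the exporter of microRNA precursors, had 9.77 on the array labelled Mof null and 9.84 on the array labelled wild type, and its probe sets differed by -0.07 and 0.58. Cse1l, the exportin that returns importin alpha to the cytoplasm and lies outside the name rule, was higher by 0.60 or 1.52-fold.

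Importin alpha adaptors, which recognise classical nuclear localisation signals, were all higher on their brightest probe set, with a median difference of 0.34 over 6 genes. Kpna3 alone passed 1.5-fold, with 10.9 on the array labelled Mof null and 10.3 on the array labelled wild type and 3 probe sets of 0.65, 0.84 and 1.10. Kpna2, the adaptor known to import Oct4 in embryonic stem cells, had 13.0 against 12.7 in wild type, a difference of 0.31 on its only probe set. Kpna1 had 5 probe sets, all higher, from 0.13 to 0.38.

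Kpna4, a close relative of Kpna3, had 10.8 on both arrays and a difference of 0.02, with 1 expressed probe set. Its other probe set, below the expression threshold, differed by -0.39. Kpna6 differed by 0.37, and Kpna7, an adaptor of oocytes and early embryos, lay near the threshold with 6.48 on the array labelled Mof null and 6.03 on the array labelled wild type.

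Importin beta and the other importins went both ways: 6 of 9 were higher, 1 of them at least 1.5-fold, 3 were lower by less than 1.5-fold, and the median was 0.44. The share higher, 66.7%, lay near the 56.7% of all expressed genes, of which 17.3% were at least 1.5-fold higher. Ipo11, an importer of ubiquitin-conjugating enzymes, had 10.6 on the array labelled Mof null and 9.76 on the array labelled wild type, 1.79-fold higher, with a second probe set at 0.63. Kpnb1, importin beta itself, had 11.7 against 11.2 in wild type, a difference of 0.50, but its 3 other probe sets gave 0.02, 0.03 and 0.29, so most of its probes showed less than the brightest. Ipo5, Ipo8 and Ipo9 differed by 0.44, 0.46 and 0.51. Ipo7 had 12.1 against 11.9 in wild type, a difference of 0.17.

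The 3 lower importins were Ranbp6, Ipo4 and Ipo13. Ranbp6, a relative of Ipo5, had the most negative difference of the 52 genes, with 6.19 on the array labelled Mof null and 6.72 on the array labelled wild type. That is 1.44-fold lower, at values close to the expression threshold. Ipo4, an importer of histones and ribosomal proteins, had 10.5 against 10.7 in wild type, a difference of -0.20, with both probe sets negative. Ipo13, which carries cargo in both directions, had 9.02 against 9.16, a difference of -0.14.

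Transportins differed little. Tnpo1, which imports hnRNP proteins, had 11.3 on the array labelled Mof null and 11.2 on the array labelled wild type, with 3 probe sets from 0.08 to 0.12. Tnpo2 differed by 0.19, and Tnpo3, which imports SR splicing factors, by 0.20 on its brightest probe set and 0.61 on another. The group's median of 0.19 was near the 0.10 of all expressed genes.

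In the Ran cycle, all 5 genes were higher, by amounts from 0.10 for Ran to 0.73 for Rcc1. Rcc1 had 10.4 on the array labelled Mof null and 9.64 on the array labelled wild type, 1.66-fold higher on its only probe set. Ran had 13.7 against 13.6 in wild type, a difference of 0.10 that equals the median of all expressed genes, and its 5 expressed probe sets lay between 0.06 and 0.11. The lowest of these 5 read 10.4 against 10.3 and differed by 0.06, so the small difference was shared by probe sets of unlike signal.

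Rangap1 had 10.7 on the array labelled Mof null and 10.2 on the array labelled wild type, a difference of 0.48, while its other probe sets gave 0.02 and 0.10. Ranbp1, the cytoplasmic cofactor of Rangap1, had 13.2 against 12.96 in wild type, a difference of 0.24. Ranbp3, a nuclear cofactor of Xpo1, had 9.94 against 9.67, a difference of 0.27. Rangrf, a Ran cofactor outside the name rule, had 10.7 against 9.89 in wild type, a difference of 0.76. Ranbp9 and Ranbp10, which bear the family name but are scaffold proteins of a ubiquitin ligase complex, were lower by less than 1.5-fold. Ranbp9 had 9.76 against 9.89 in wild type, a difference of -0.12, though its second probe set gave 0.36. Ranbp10 had 9.02 against 9.28, a difference of -0.26.

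Probe sets of a member mostly shared its direction. Of 36 member genes with several expressed probe sets, 28 had only positive differences and 6 had both signs. Of the 14 genes past 1.5-fold, 9 had several expressed probe sets, and 2 of these, Xpo1 and Xpo4, had 1 or more under 1.5-fold. Conversely 6 genes under 1.5-fold on the brightest probe set passed it on another (Nup54, Nup62, Nup153, Ipo5, Tnpo3 and Xpo7). Over the 52 genes the difference did not run with the mean log2 value (Pearson r = -0.01, Spearman rho = -0.05, n = 52 genes of the same pair of arrays).

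Most other genes of the same pathways were higher too, but pore subunits outside the name rule by less than those on it. Of 11 expressed pore subunits outside the name rule, 8 were higher, none passed 1.5-fold in either direction, and the median difference was 0.26. Of 21 expressed mRNA export factors, 19 were higher, 3 at least 1.5-fold and none 1.5-fold lower, with a median of 0.30. Nxt1, the partner of the export receptor Nxf1, had 10.7 on the array labelled Mof null and 9.85 on the array labelled wild type, a difference of 0.86. The pore helicase Ddx19b had 9.66 against 8.84, a difference of 0.82, and Thoc3, a subunit of the THO complex that couples transcription to export, had 10.9 against 10.2, a difference of 0.69. Nxf1 itself differed by 0.28. Of 11 expressed further receptors and Ran cofactors, 10 were higher and 5 at least 1.5-fold, with a median of 0.54. After Rangrf, the largest difference was that of Hikeshi, an importer of Hsp70, with 11.3 against 10.7 in wild type (0.65). Ncbp1, a subunit of the nuclear cap-binding complex, followed with 10.2 against 9.57 (0.62). The gene that was lower was Ncbp2, of the same complex, with a difference of -0.12. For these lists too the share of all expressed genes past 1.5-fold higher was 17.3%.

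Proliferation markers were higher on the same array in all 19 expressed genes, with a median difference of 0.69, and 13 of them passed 1.5-fold. Mki67, a proliferation marker, had 11.7 on the array labelled Mof null and 10.6 on the array labelled wild type. The member median of 0.45 and the pore median of 0.54 were below this and below the pluripotency median of 0.60. Taken relative to the pluripotency median, the pore median was -0.066 and the member median -0.15, and 14 of the 52 genes stayed above 0. Under this scaling the median of all expressed genes was -0.50, and 26.9% of the members were above 0, against 16.6% of all expressed genes. The 14 genes are those already counted as at least 1.5-fold higher, since the 0.60 subtracted lies near the 1.5-fold line at 0.585. They comprised 5 Y complex genes (Nup37, Nup43, Nup85, Nup107 and Nup133), Nup155, Nup188 and Nup210, and the transport genes Ipo11, Kpna3, Ranbp17, Rcc1, Xpo1 and Xpo4. The direction of the member and pore medians thus depends on this scaling. The medians of the Y complex (0.10) and the inner ring (0.029) stayed above 0 by construction, since 0.71 and 0.63 exceed the 0.60 subtracted. In the inner ring Nup93 (0.52 before scaling) and Nup205 (0.45) did not. The part of proliferation and of the feeder markers in these differences was not tested.

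**Figure D4:**
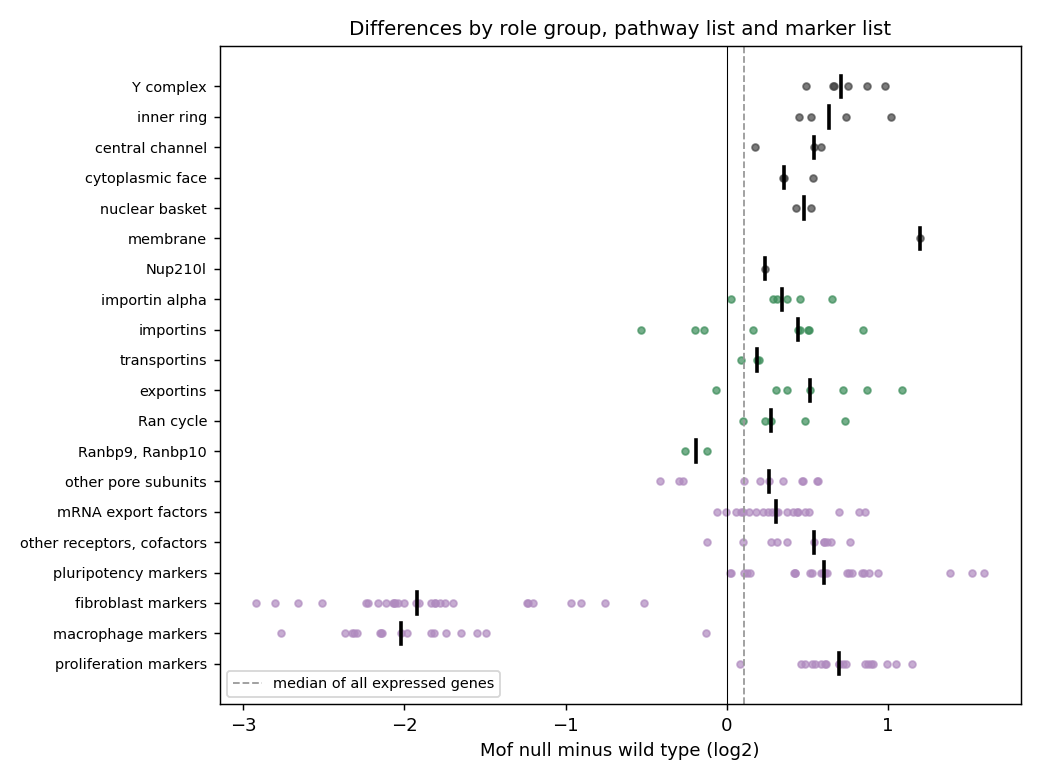
Log2 difference (horizontal axis, Mof null minus wild type) of each expressed gene by role group (dark for pore proteins, green for receptors and the Ran system), and by pathway and marker list (purple), with list medians as black bars and the median of all expressed genes, 0.10, as a dashed line. The Y complex median of 0.71 lies beside the proliferation median of 0.69 and the pluripotency median of 0.60, while the fibroblast and macrophage medians lie at -1.92 and -2.02.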

How the data were processed

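RNA of 2 mouse embryonic stem cell cultures was measured on 1 array each. The deposited log2 values of 45101 probe sets were made by the authors with RMA (R 2.10.0, package affy), per the submitters' processing notes. That they are log2 was inferred from their range of 2.77 to 14.7. RMA quantile-normalizes the arrays, so a shift of most transcripts cannot be seen in them. It is not stated whether RMA was run on further arrays.

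Gene names came from the platform annotation, in which 34945 probe sets name 1 gene, giving 18193 genes. A gene took its probe set with the highest mean, without regard to the difference. All members are accounted for. Singled out with both values by rule were the 8 largest positive differences, the negative ones (6, where the rule allowed 8), the brightest gene of each role group, the Ran cycle, and Kpnb1, Kpna2, Xpo1, Nup153, Nup50, Nup133 and Nup210, and from each pathway list the 3 largest differences; marker lists are given by their summaries, and other genes were chosen after their values were seen. The members, lists and rules were chosen with earlier results of these data known.

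No test was run, since there was 1 array per genotype. Alternatives were the mean of probe sets, no _s_at, _x_at or _a_at probe sets, no filter, a filter at percentile 75, centring, removal of a lowess trend (span 0.3), quantile normalization and scaling to the pluripotency markers. The counting was tested on simulated data. Protein sequences were not used here. Tables were made with pandas 2.3.3 and numpy 2.4.6 under Python 3.11.15, correlations with scipy 1.17.1, the lowess fit with statsmodels 0.14.6 and plots with matplotlib 3.10.9.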

Additional observations from a re-analysis of the deposited data

How the results depend on the processing

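The number of arrays, 1 per genotype, limits the precision, so nothing could be left out, and no paired analysis was possible because there is 1 sample in each group and no result comes from a test. The median difference of the members lay between 0.31 and 0.45 with probe sets averaged or restricted, other filters, centring, trend removal and quantile normalization. The count at least 1.5-fold higher lay between 11 and 14 of the 47 to 52 members left, where 12.7% to 18.6% of all genes were. With probe sets averaged, 0 of 51 members were at least 2-fold higher, where 4.19% of all genes were. The cytoplasmic face median was then 0.0086, Nup210 (membrane nucleoporins) 0.70, Nup155 0.41, Xpo4 0.35 and Ranbp2 -0.057. Kpna4 turned negative as well, to -0.18, while Xpo5 and Ranbp9 turned positive, to 0.26 and 0.12. Without _s_at, _x_at and _a_at probe sets the median of Ranbp9 and Ranbp10 turned to 0.10. Centring left 1 member 2-fold higher, where 3.74% of all genes were. Under centring 1 gene was 1.5-fold lower, and under trend removal likewise 1; in both it was Ranbp6. Of all genes 21.9% and 21.7% were then 1.5-fold lower and 13.0% and 13.3% higher.

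Scaling to the pluripotency markers subtracts 0.60 from every gene, so lower values follow by construction, and the median of all genes became -0.50. The medians became -0.15 for all members, -0.066 for pore proteins, -0.29 for transport receptors and the Ran system, 0.10 for the Y complex, 0.029 for the inner ring, -0.062 for the central channel, -0.25 for the cytoplasmic face, -0.13 for the basket, 0.59 for Nup210 and -0.37 for Nup210l. They became -0.26 for importin alpha, -0.16 for importins, -0.42 for transportins, -0.087 for exportins, -0.33 for the Ran cycle, -0.79 for Ranbp9 and Ranbp10, -0.34 for other pore subunits, -0.30 for mRNA export factors and -0.061 for further receptors and cofactors. Counts became 1 higher and 6 lower at 1.5-fold, and 0 higher and 1 lower at 2-fold. Of all genes 2.89% were then higher and 44.3% lower at 1.5-fold, and 0.757% higher and 24.4% lower at 2-fold.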
